A study of Rattus norvegicus with 24 samples.

Results

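The autosomal CpG island probes that already carried a high methylation signal in the normal rat mammary gland were examined in mammary carcinomas of 3 groups. On each array the log2 ratio of methylation-enriched DNA (labelled Cy5) to unenriched DNA of the same tissue (labelled Cy3) was centred on the median of all probes of that array, and a probe was taken as methylated in the gland when the mean of this level over the 3 normal glands was 2.5 or more. Of 89403 autosomal probes 8713 (9.75%) met this rule, and they are called the gland-methylated probes here. The rule used the gland values, so gland levels, and the difference between carcinomas and glands, are given as descriptions with no test. Only differences between the carcinoma groups were tested.

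The series held 24 arrays, 1 for each tissue. All tissues came from female Sprague-Dawley rats. IR-3W denotes 7 mammary carcinomas of rats given 2 Gy of whole-body gamma rays from 137Cs before puberty, at 3 weeks of age, IR-7W denotes 7 carcinomas of rats given 2 Gy after puberty, at 7 weeks, and the spontaneous group holds 7 carcinomas of rats that were not irradiated. The 3 normal mammary glands came from rats that were not irradiated. Per the labels, rats first ate a standard diet and were later moved to AIN-76A chow rich in corn oil. The 21 carcinomas came from 19 rats, since IR-3W tumors 6 and 7 shared a rat and IR-7W tumors 1 and 2 shared another, and all p-values measure only the spread between these tissues.

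CpG islands are stretches of DNA rich in the dinucleotide CpG, and most of them stay free of methylation in normal tissue, above all where they lie at the start of active genes. The exceptions that are methylated in adult somatic tissue include the islands of the inactive X chromosome, of imprinted loci, where 1 parental copy is methylated, and of many germ line genes and gene bodies. A methyl-CpG binding domain protein was used to pull methylated fragments out of sonicated DNA, so the level of a probe rises with the share of molecules caught and with the density of methylated CpGs on the fragment. In bulk tissue, fewer cells with a methylated island and less methylation per cell cannot be told apart. The probe tables pair no probe with a gene, and positions are given in rat build rn4, as the arrays' own annotation has them.

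The levels of the autosomal probes in the glands had a broad low class and a separate high class. The gland mean was under 1 for 72988 probes (81.6%), and between 2 and 2.5 for only 1653 probes (1.85%). Above the limit the numbers rose again, with 1913 probes from 2.5 to 3, 3013 from 3 to 3.5, 2841 from 3.5 to 4, 865 from 4 to 4.5 and 81 at 4.5 or more. The 2 probes just inside the limit, chr20:19358794-19358843 and chr7:11205744-11205788, and the 2 just outside it, chr6:9226042-9226086 and chr1:241961003-241961049, all had a gland mean that rounds to 2.5. On the X chromosome, which the rule leaves out, 1489 of 2494 probes (59.7%) reached the same limit, and among probes on unplaced contigs 159 of 1127 (14.1%) did. The highest gland means belonged to chr8:20090804-20090848 at 5.59, chr1:264957302-264957347 at 5.11, chr3:159751498-159751542 at 5.08, chr12:45354013-45354057 at 5.00 and chr5:57571518-57571564 at 4.99. The probe with the highest mean read 4.67 to 7.70 (median 5.23) in IR-3W tumors, 4.45 to 5.66 (median 5.44) in IR-7W tumors and 3.91 to 5.86 (median 5.00) in spontaneous tumors, so it was among the strongest signals in every group.

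A gland left out of the choice mostly read high as well. When the probes were chosen from 2 glands alone, 99% of them were also at 2.5 or more in gland 1, 68.6% in gland 2 and 99.2% in gland 3. Gland 2 had lower levels throughout, and 98.4% of the probes chosen without it were at 1 or more there. Across the 8713 probes, which are not independent replicates, the levels of 2 glands correlated with r of 0.770 to 0.879.

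The gland-methylated probes were spread unevenly over the chromosomes. Chromosome 12 had the largest share, 573 of 3268 probes (17.5%), followed by chromosome 20 with 450 of 2635 (17.1%), chromosome 18 with 368 of 2711 (13.6%) and chromosome 7 with 867 of 6445 (13.5%). The smallest shares were on chromosome 13, with 141 of 2353 probes (5.99%), chromosome 4 with 6.89% and chromosome 2 with 388 of 5421 (7.16%). Within chromosomes they were concentrated further. Of 2032 windows of 1 Mb with probes, 891 (43.8%) held at least 1 gland-methylated probe, and 152 windows (7.48%) held 50% of all of them.

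The window with the most gland-methylated probes was on chromosome 7 from 10 to 11 Mb, with 183 of 524 probes (34.9%). Together with its neighbours from 9 to 12 Mb it held 325 of 1036 probes (31.4%) in 54 separate runs. The first 1 Mb of chromosome 18 had a higher share, 90 of 153 probes (58.8%) in 13 runs. Further blocks were found on chromosome 18 from 29 to 31 Mb (114 of 293 probes, 34 runs), on chromosome 20 from 4 to 6 Mb (108 of 411), on chromosome 1 from 78 to 80 Mb (113 of 467) and on chromosome 16 from 18 to 20 Mb (117 of 737). To compare blocks between arrays that differ in overall enrichment, each level was also divided by the median level of the gland-methylated probes on its array (called the relative level, where 1.00 is a typical gland-methylated probe and 0 the median of all probes). The block on chromosome 7 from 9 to 12 Mb had a median relative level of 1.05 to 1.07 in the glands, 1.00 to 1.06 in IR-3W tumors, 1.01 to 1.07 in IR-7W tumors and 1.01 to 1.06 in spontaneous tumors. Over the 6 blocks the lowest median in any array was 0.93 and none of the 21 carcinomas lost such a block as a whole.

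Neighbouring probes carried the signal together. The preceding probe within 200 bp was gland-methylated for 91.5% of the gland-methylated probes and for 0.946% of the others. Joined where they lay at most 1000 bp apart, the 8713 probes formed 1963 runs, of which 307 held a single probe, 225 held 2, 884 held 3 to 5, 478 held 6 to 10 and 69 held 11 or more. The 1431 runs of 3 or more probes contained 7956 probes (91.3%). The median run of 3 or more probes spanned 423 bp and the longest spanned 4096 bp.

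When all autosomal probes were grouped into islands by the same distance, most gland-methylated probes lay in islands that were methylated throughout. Of 13856 islands, 1079 consisted wholly of gland-methylated probes and held 5673 of them, and 877 were mixed and held 3040. The share of gland-methylated probes was 19% in islands of 1 probe, 10.6% in islands of 2 and 13.2% in islands of 3 to 5. It was 9.45% in islands of 6 to 10, 6.74% in islands of 11 to 20 and 6.13% in islands of 21 or more. In the 510 mixed islands of 6 or more probes the outermost probe was gland-methylated in 37.2%, the second in 46.7%, the third in 56.7%, and probes further inside in 38.4%. In 301 of these islands 1 end was methylated, in 39 both ends were, and in 170 neither was. Over 1154 neighbouring pairs of a gland-methylated and another probe within 200 bp the median step was 0.87 in the glands (log2), and the carcinomas had medians of 0.76 (IR-3W), 0.79 (IR-7W) and 0.71 (spontaneous). The step was over 2 in 214, 183, 191 and 184 of those pairs. The rule chose these pairs by their gland values, and such neighbours share sheared fragments, so the steps are a description.

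**Figure D1:**
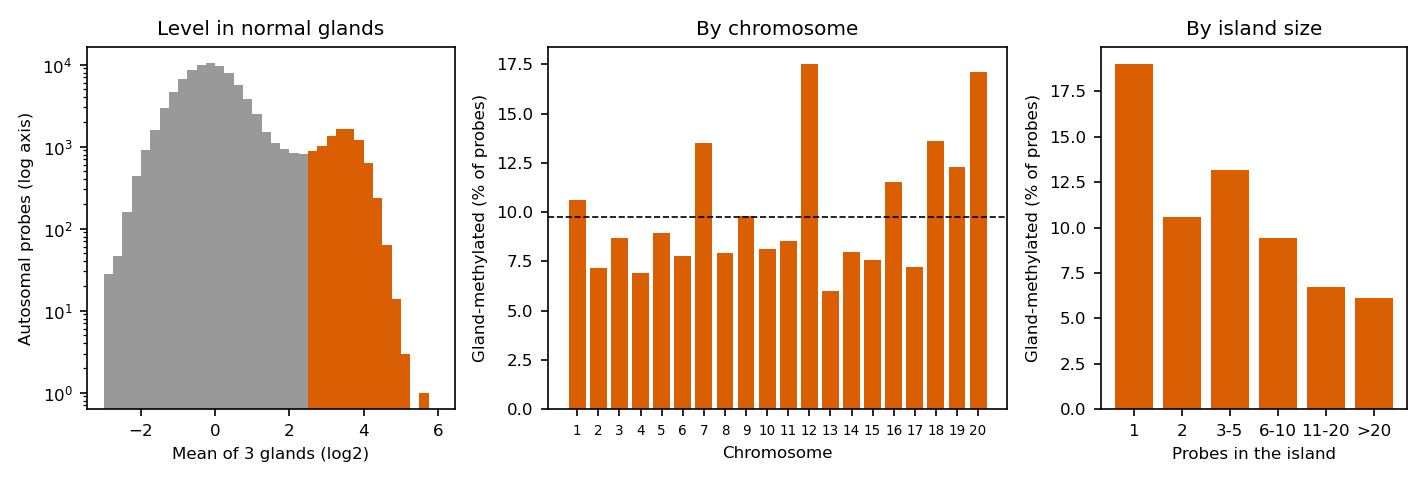
Level and place of the gland-methylated probes (orange). The panels show the number of autosomal probes by gland mean (log2, count on a log axis), the percent of probes that were gland-methylated on each autosome with a dashed line at 9.75% for all autosomes, and the same percent by the number of probes in the island; chromosomes 12 (17.5%) and 20 (17.1%) stand highest, and the share is lowest in islands of over 20 probes (6.13%).

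The 6 runs with the most probes kept a high level in every carcinoma. The longest, chr12:46723369-46727464, took in 35 of the 58 probes of its island, and its relative level was 1.00 to 1.09 over the 21 carcinomas. In chr9:32921179-32923334 all 25 probes of the island were gland-methylated, and the carcinomas read 1.02 to 1.10. The corresponding ranges were 1.05 to 1.15 for chr5:58917818-58919814 (23 probes), 1.05 to 1.16 for chr6:132294171-132296380 (21 probes), 1.03 to 1.14 for chr16:19019779-19021462 (19 probes) and 0.97 to 1.12 for chr7:114211130-114213748 (19 probes). None of these runs fell apart from the typical gland-methylated probe in any carcinoma.

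The general level of the gland-methylated probes differed from array to array. The median over the 8713 probes was 3.59, 2.91 and 3.80 (log2) in glands 1 to 3, and in the tumors it was 3.29 to 5.79 (median 3.65) for IR-3W, 3.05 to 3.91 (median 3.55) for IR-7W and 2.45 to 4.06 (median 3.07) for spontaneous. IR-3W tumor 1, at 5.79, stood far above all other arrays, and without it the IR-3W tumors read 3.29 to 3.73. The 3 groups overlapped. The share of gland-methylated probes at 2.5 or more in a single array was 76.4% to 99.6% for glands, 89.3% to 99.9% for IR-3W, 88.4% to 97.2% for IR-7W and 44.6% to 98.7% for spontaneous tumors. The lowest shares belonged to the arrays with the lowest medians.

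**Figure D2:**
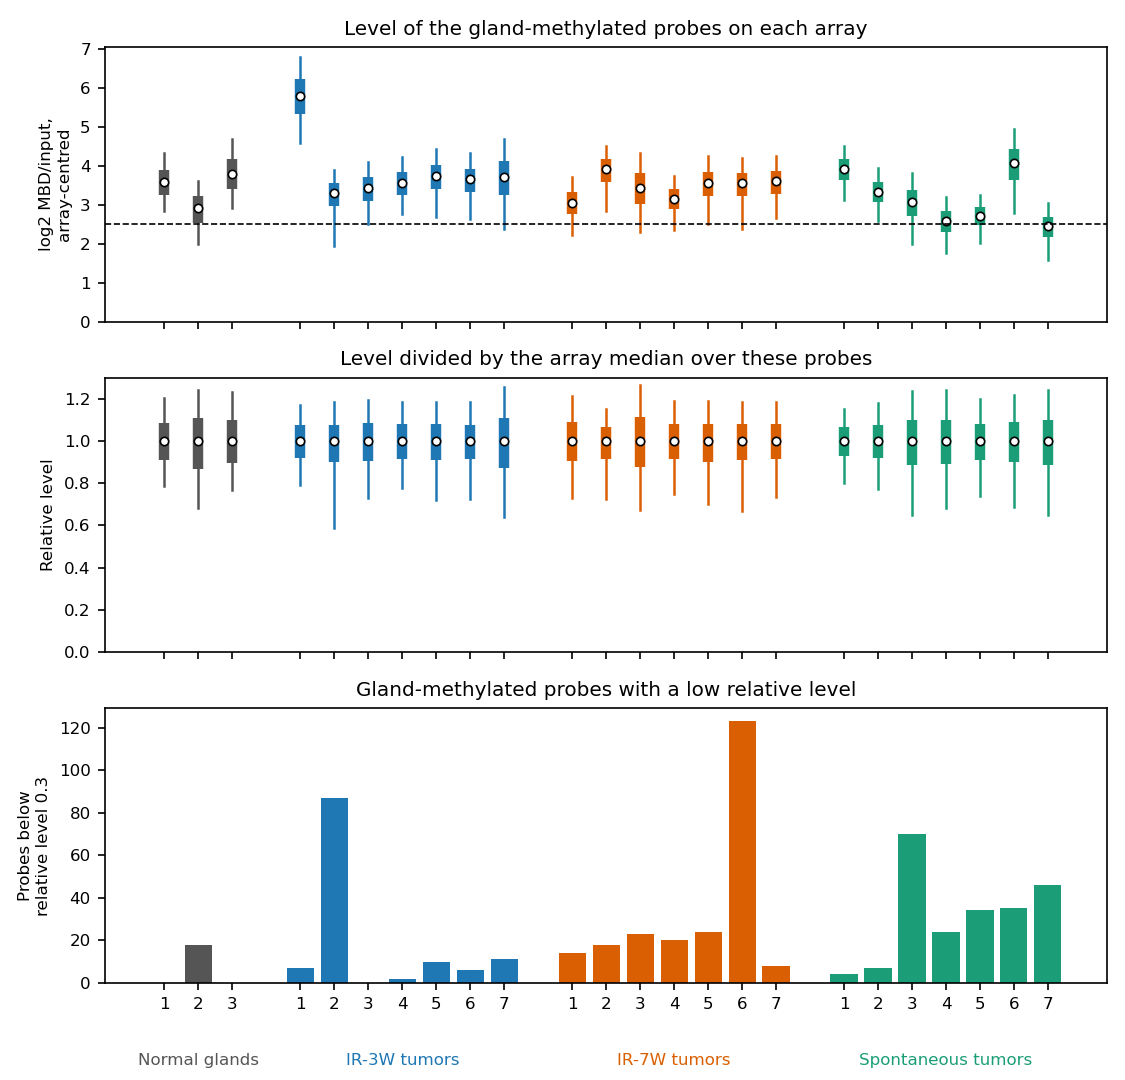
Gland-methylated probes on each array, coloured by group. Circles are medians over the 8713 probes, thick bars run from the 25th to the 75th percentile and thin lines from the 5th to the 95th, for the level (log2, top, dashed line at the limit of 2.5) and the relative level (middle), and bars at the bottom count probes with a relative level under 0.3; IR-3W tumor 1 lies highest on the log2 scale, at 5.79, and IR-7W tumor 6 has the most low probes, 123.

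The general level also differed between some scan days, and the groups were unevenly spread over these days. All 3 glands were scanned on 1 day, with spontaneous tumor 3 (3.07) as the only carcinoma. The lowest spontaneous tumors (tumors 4, 5 and 7, at 2.45 to 2.71) were scanned on 1 day together with IR-7W tumor 4 (3.16), and no IR-3W array was scanned that day. On the day that held arrays of all 3 carcinoma groups with 2 of each, IR-3W read 3.65 and 5.79, IR-7W 3.55 and 3.56, and spontaneous 3.33 and 3.91. On the other day with all 3 groups, IR-3W read 3.43 to 3.73, IR-7W 3.05 to 3.60 and the only spontaneous array 4.06. The order of the group levels was thus not kept within scan days, and the part of the scan day in the group levels was not tested.

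Taken as group means of each probe, the gland-methylated class persisted in the carcinomas. The median over the 8713 probes of the group mean was 3.42 for the glands (log2), and it was 3.85 for IR-3W (3.54 without tumor 1), 3.44 for IR-7W and 3.15 for spontaneous tumors. The group mean was at 2.5 or more for 8653 probes (99.3%) for IR-3W, 8376 (96.1%) for IR-7W and 8040 (92.3%) for spontaneous tumors, and the mean over all 21 carcinomas for 8456 (97.1%). No gland-methylated probe was lower in every carcinoma than in every gland, nor higher in every carcinoma, while among all autosomal probes 7.16% were lower and 2.99% higher in that sense. These counts share the gland values with the rule, and the levels of whole arrays nearly fix them for the gland-methylated probes. The median of these probes was 5.79 in IR-3W tumor 1, against 2.91 in gland 2, and it was 2.45 in spontaneous tumor 7. The counts are therefore a description and cannot show whether the class persisted. On the relative scale, the mean of the 21 carcinomas lay more than 0.2 under the gland mean for 122 probes and more than 0.2 above it for 66.

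The spread between tumors of a group lay mostly in the level of whole arrays. The median SD of a gland-methylated probe (log2) was 0.91 for IR-3W (0.28 without tumor 1), 0.34 for IR-7W and 0.67 for spontaneous tumors. For the other autosomal probes it was 0.39 (0.36 without IR-3W tumor 1), 0.33 and 0.36. On the relative scale the SDs of the gland-methylated probes were 0.0526, 0.0514 and 0.0567, against 0.100, 0.0987 and 0.119 for the others. The relative level divides each array by the median of these same probes. It thus takes the array level out of them by construction and not out of the others, so their smaller SD is no separate result. Across the 21 carcinomas the level of a gland-methylated probe correlated with the median of its array with a median r of 0.967 over probes, or 0.928 over 20 carcinomas without IR-3W tumor 1, a description in which all points share the array.

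Probes with a gland mean just above the limit varied most. The median SD of the relative level over the 21 carcinomas was 0.0938 for a gland mean of 2.5 to 3, 0.0567 for 3 to 3.5, 0.0457 for 3.5 to 4 and 0.0489 for 4 or more. The share of probes in islands methylated throughout was 38.2%, 63.5%, 78.1% and 85.9% in the same order. The probes with the smallest SD over the carcinomas (log2) were chr15:61059428-61059472 at 0.29, chr8:47114428-47114472 at 0.29, chr13:69122055-69122099 at 0.33, chr18:30591541-30591589 at 0.38 and chr15:33779451-33779495 at 0.38. The largest SDs were at chr1:263692607-263692666 with 1.74, chr4:64391531-64391590 with 1.70, chr7:118065222-118065281 with 1.69, chr3:160558123-160558182 with 1.60 and chr2:251851348-251851407 with 1.60. These 5 probes were all 60 bases long, and their Cy3 signal was not well above background on most arrays. Among the 643 gland-methylated probes whose Cy3 signal was not well above background on at least 1 array, the SD of the relative level exceeded 0.25 in 63 (9.8%), against 18 of the 8070 others (0.223%).

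The relative levels of neighbouring gland-methylated probes moved together from tumor to tumor. Over the 21 carcinomas the median correlation was 0.652 for probes that overlapped, 0.433 for 4254 pairs 1 to 100 bp apart, 0.419 for 101 to 300 bp, 0.360 for 301 to 1000 bp, 0.114 for 1001 to 10000 bp and 0.0388 for 1773 pairs further apart. Such pairs share arrays, and close ones also share fragments, since the DNA was sheared before capture.

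Loss of the signal was rare and mostly belonged to single tumors. A relative level under 0.3, a limit chosen after the values were seen, was taken as low. At least 1 of the 21 carcinomas was low at 288 gland-methylated probes (3.31%), and none was at 8425. At 152 of the 288 probes a single tumor was low, and the most tumors low at any probe was 12. By gland mean, 223 of these probes (11.7% of their class) were at 2.5 to 3, 59 (1.96%) at 3 to 3.5, 6 (0.211%) at 3.5 to 4 and 0 of 946 above. The cut of 0.3 was the same for all classes. The median relative level in the carcinomas was 0.84 in the lowest class and 1.17 in the highest. The lower classes thus lay nearer the cut, and part of this gradient follows from that. In a single low array the Cy3 signal was often weak, with 192 of the 573 low spots (33.5%) not well above background in Cy3, against 1.86% of other spots. At 205 of the 288 probes Cy3 was well above background in each low tumor.

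The number of low probes in a tumor ran from 0 to 123. It was 0 to 87 (median 7) for IR-3W, 8 to 123 (median 20) for IR-7W and 4 to 70 (median 34) for spontaneous tumors, and it was 18 in gland 2 and 0 in the other glands. IR-7W tumor 6 with 123, IR-3W tumor 2 with 87 and spontaneous tumor 3 with 70 had the most. On these arrays Cy3 was well above background for 96.3%, 95.1% and 94.5% of the gland-methylated probes, and in gland 2 for 95.5%. The range over the 24 arrays was 94.5% to 100%. IR-7W tumor 2 also had 95.1%, with 18 low probes. The part of weak Cy3 signal in the counts was not tested. The carcinoma groups overlapped widely, and no test was made of these counts. The gland counts are kept low by the rule, which chose probes with high gland values.

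To set single spots aside, the mean relative level of each of the 1431 runs of 3 or more probes was taken. It was under 0.3 in at least 1 carcinoma for 25 runs (1.75%), in a single carcinoma for 17 of them, and in no gland for any. The rule chose these probes for high gland values, so the absence of low glands largely follows from it. IR-7W tumor 6 was low in 16 of the 25 runs, IR-3W tumor 2 in 7, spontaneous tumor 3 in 5, spontaneous tumor 5 in 3 and spontaneous tumor 7 in 2. Without IR-7W tumor 6 there were 15 low runs, and when the probes were chosen without gland 2 there were 50. The Cy3 signal of the low tumors lay inside the range of the other arrays in 21 of the 25 runs.

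**Figure D3:**
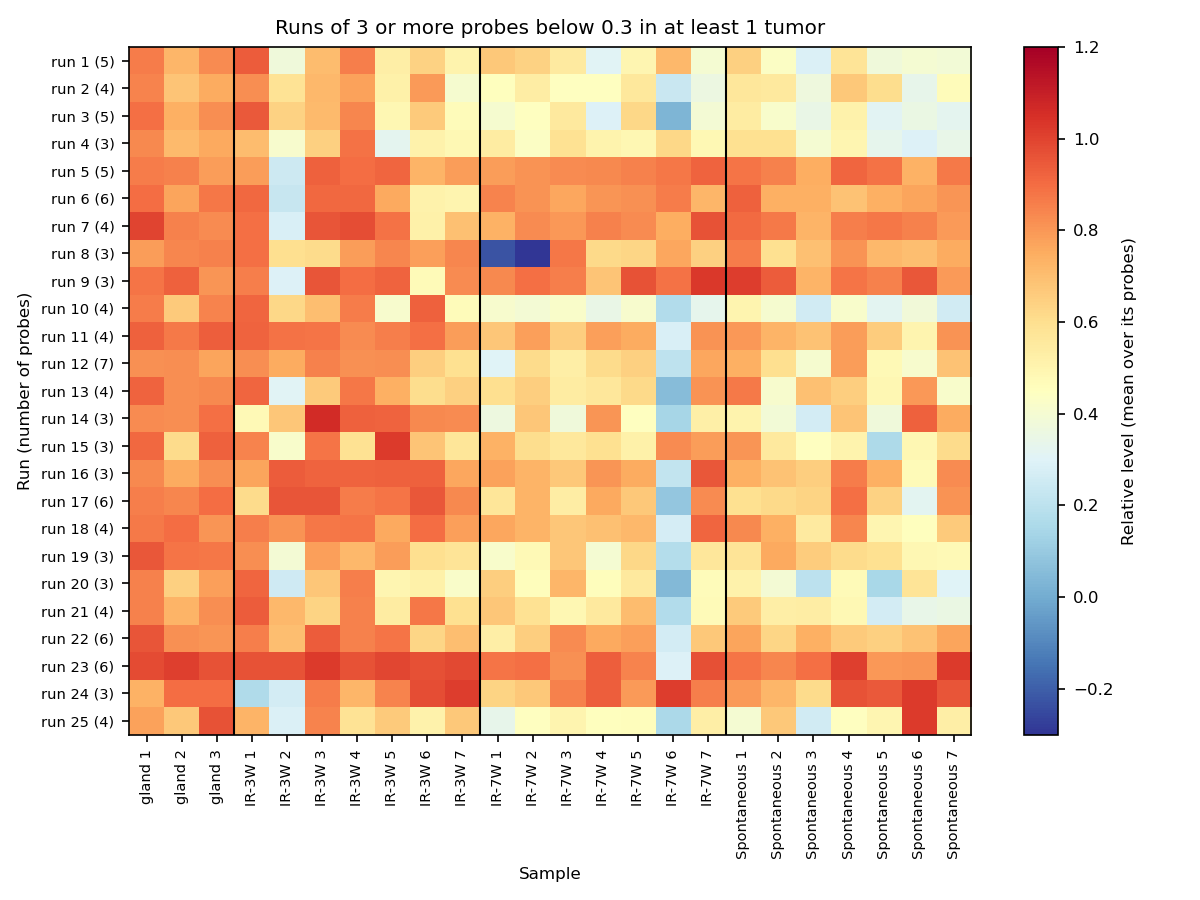
Relative level of the 25 runs with at least 1 low carcinoma (rows) in each of the 24 arrays (columns, by group). Colour gives the relative level. Low values sit mostly in the column of IR-7W tumor 6, low in 16 runs, and of IR-3W tumor 2, low in 7. The 3 glands are high in all rows, which largely follows from the rule that chose the probes.

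The run at chr6:91337657-91337832 had the widest gap between low and other tumors. Its 3 probes had a relative level of -0.23 in IR-7W tumor 1 and -0.30 in IR-7W tumor 2, the pair from the same rat. The other 19 carcinomas read 0.59 to 0.89 and the glands 0.79 to 0.85. The low tumors were therefore under the median of all probes. The probe chr6:91338021-91338065, in the same island but not gland-methylated, also read -0.36 and -0.060 in them, against 0.34 to 0.67 in the other carcinomas. The Cy3 signal of the run (log2, centred by array and given as a deviation from the run's mean over arrays) was lowest in these tumors, at -0.59 and -0.53, against -0.41 to 0.45 in the other arrays. The part of the weaker unenriched signal in this loss was not tested.

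At chr4:43180951-43181309 a single tumor stood apart. The 5 probes read 0.25 in IR-3W tumor 2, while the other carcinomas read 0.73 to 0.93 and the glands 0.79 to 0.86. The Cy3 deviation of the run in this tumor, 0.24, lay above the range of the other arrays, -0.26 to 0.19, and its part in the low value was not tested. At chr20:12088939-12089201 both IR-3W tumor 1 (0.17) and IR-3W tumor 2 (0.27) were low, and the others read 0.61 to 1.02. A probe beyond the run, chr20:12089474-12089518, which is not gland-methylated, read 0.11 and 0.20 in these tumors and 0.47 to 0.89 in the other carcinomas. IR-3W tumor 1 had the highest general level of all arrays, and 7 of its gland-methylated probes were low.

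Runs that were low in IR-7W tumor 6 differed in how far the other tumors were away. At chr20:8956456-8956940 tumor 6 read 0.30 and the other carcinomas 0.80 to 1.02, with 2 of its 6 probes not well above background in Cy3. At chr9:37852084-37852345 tumor 6 read 0.053 and IR-3W tumor 2 followed at 0.31, with the rest spread up to 0.91. At chr2:175941217-175941737 tumor 6 read 0.034, IR-7W tumor 4 read 0.30 and the others ran from 0.31 to 0.94. The run low in most tumors was chr17:77594744-77595060, with IR-3W tumor 2, IR-7W tumor 6 and spontaneous tumors 3, 5 and 7 under the limit and the others between 0.40 and 0.92. The probes with the lowest mean over the 21 carcinomas (log2) were chr7:114747186-114747231 at 1.29, chr3:11438777-11438821 at 1.40, chr2:175941217-175941261 at 1.48, chr12:38158196-38158243 at 1.53 and chr15:80633729-80633788 at 1.54.

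**Figure D4:**
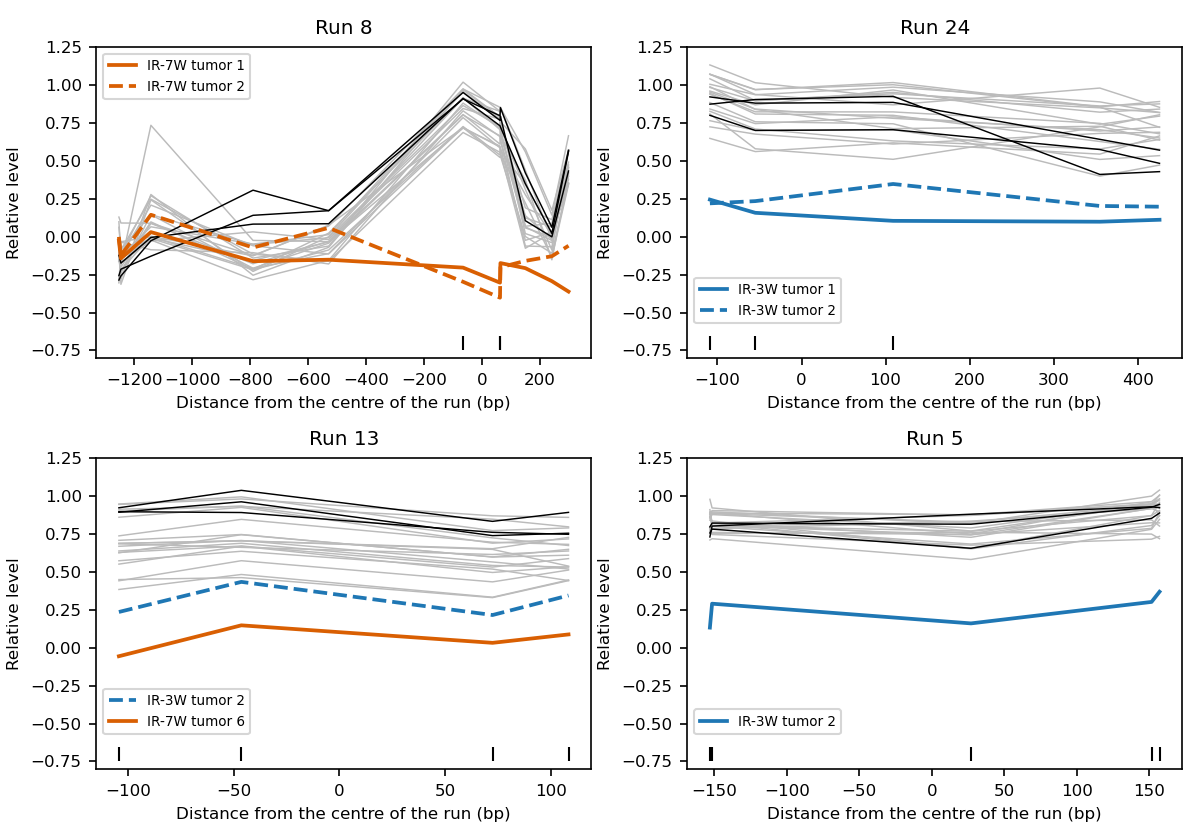
Relative level along 4 low runs against the distance from the centre of the run in bp. Coloured lines are the low carcinomas, black lines the 3 normal glands, grey lines the other carcinomas, and ticks mark the gland-methylated probes; run 8 is chr6:91337657-91337832, run 24 is chr20:12088939-12089201, run 13 is chr9:37852084-37852345 and run 5 is chr4:43180951-43181309, and in run 8 IR-7W tumors 1 and 2 stay near or under 0 across all its probes.

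The carcinoma groups were then compared at every probe with limma, pair by pair, on the centred log2 levels, with Benjamini-Hochberg adjustment over all 93024 probes and an adjusted p under 0.05 as the call. Between IR-7W and IR-3W 0 probes were called by limma, gland-methylated or not (0% of all probes), and the methods' t-test on the same values also gave 0 after adjustment. At an unadjusted p under 0.05, 212 gland-methylated probes differed (2.43%), 206 of them lower in IR-7W, where 6.49% of all probes passed and 2.39% were lower. That count of 212 was 441 without IR-3W tumor 2, and 126, 133 and 127 without IR-7W tumor 1, 4 or 6. Over all 93024 probes the counts in the same order were 6823, 4998, 5105 and 5139, against 6040 with all tumors. The absence of calls rested in part on single tumors, since limma called 82 probes without IR-7W tumor 7, 2 without IR-7W tumor 6 and 1 without IR-7W tumor 5, none of them gland-methylated, and 1 gland-methylated probe without IR-3W tumor 7. On the relative scale 73 probes were called and 0 of them were gland-methylated. At an unadjusted p under 0.05, 129 gland-methylated probes were lower and 3 higher with the scan day as a block (1.51%, against 6.4% of all probes). With 1 tumor per rat 273 were lower and 1 higher, and 5859 of all 93024 probes passed. With the slide as a block (4 slides held both groups) 17 gland-methylated probes passed (0.195%, against 3.97% of all probes), 11 lower and 6 higher, and on the relative scale, where the balance of directions follows from the scaling, 276 passed (3.17%, against 8.08%), 144 lower and 132 higher. The smallest p among gland-methylated probes was at chr12:38158196-38158243, with a difference of -1.77 (log2, SE 0.36, adjusted p = 0.152 by limma), and the next at chr3:57347500-57347559, with -1.55 (adjusted p = 0.158 by limma). Between spontaneous and IR-7W tumors limma and the methods' t-test called 0 probes as well (0% of all probes), and 137 gland-methylated probes had an unadjusted p under 0.05 (1.57%, against 3.93% of all probes), all lower in spontaneous tumors, with a median difference of -0.30 (log2) over the gland-methylated probes, which was -0.18 without spontaneous tumor 7 and -0.45 without spontaneous tumor 6. With the scan day as a block 63 passed (0.723%, against 3.29% of all probes), 40 lower and 23 higher, and the median difference turned to 0.064. With the slide as a block 86 passed (0.987%, against 3.55%), 85 of them lower, with a median difference of -0.45, on the 1 slide that held both groups (IR-7W tumor 4 and spontaneous tumor 5). By the relative level 93 passed (1.07%, against 4.72%), 62 lower and 31 higher. The count of 137 was 219, 75 and 91 without IR-7W tumor 1, 2 or 7, and 925, 70, 73, 2329 and 61 without spontaneous tumor 1, 4, 5, 6 or 7. Over all 93024 probes 3652 passed with all tumors. In the same order of tumors left out it was 3867, 3639 and 3771, and 5050, 2813, 3365, 8453 and 2794. The smallest p among gland-methylated probes there belonged to chr19:25712932-25712981 (-1.0) and chr16:18905176-18905220 (-0.78), both with an adjusted p of 0.912 by limma.

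Between spontaneous and IR-3W tumors 5 gland-methylated probes were called, all lower in spontaneous tumors, among 8 calls in 93024 probes (0.0086%, and 0.00645% lower). At an unadjusted p under 0.05, 1531 gland-methylated probes differed (17.6%), 1530 of them lower in spontaneous tumors, where 10.2% of all probes passed and 5.75% were lower. The median difference over the gland-methylated probes was -0.73 and over all probes -0.05 (log2), and without IR-3W tumor 1 the former was -0.40. The count of 1531 lay between 300 (without spontaneous tumor 7) and 5243 (without spontaneous tumor 6) when a tumor was left out. It moved by over 1.5 times for every tumor but IR-3W tumors 3, 4 and 6. Over all 93024 probes the counts in these 2 fits were 6796 and 16110, against 9517 with all tumors. With the scan day as a block, 218 gland-methylated probes passed (2.5%, against 7.72% of all probes), 211 of them lower, with a median difference of -0.44. In 1 fit of all 24 arrays 5363 of the 8713 gland-methylated probes passed, 5361 of them lower, and 15561 of all 93024 probes passed. With the slide as a block, 47 passed (0.539%, against 6.22% of all probes), 25 lower and 22 higher, and the median difference turned to 0.32, a value that rests on the 1 slide with both groups (IR-3W tumor 5 and spontaneous tumor 6). On the relative scale, which takes out the level of the array, 373 passed (4.28%, against 13% of all probes), 189 lower and 184 higher, with a median difference of 0.00 in relative units. The median near 0 and the balance of directions on the relative scale follow from its construction, since each array is divided by the median of these same probes.

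The 5 called probes all lay in 1 run of 6, chr12:38155524-38155953. They were chr12:38155909-38155953 (-1.30, SE 0.15, adjusted p = 0.0228 by limma), chr12:38155756-38155800 (-1.36, adjusted p = 0.0336), chr12:38155765-38155809 (-1.38, adjusted p = 0.0336), chr12:38155524-38155568 (-1.26, adjusted p = 0.0397) and chr12:38155615-38155659 (-1.31, adjusted p = 0.0397). The sixth probe, chr12:38155902-38155946, had an adjusted p of 0.115 by limma. Overlapping and neighbouring probes read the same fragments, so the 5 are not independent. The mean level of the run (log2) was 3.08 to 3.53 (median 3.28) for IR-3W, 0.32 to 2.99 (median 2.38) for IR-7W and 1.28 to 2.33 (median 1.98) for spontaneous tumors, and 2.44 to 3.4 in the glands. All 7 IR-3W tumors lay above all 7 spontaneous tumors on the log2 scale, and IR-7W overlapped the spontaneous group. The calls depended on the fit, on the scale and on single tumors. With the slide or the replicate number as a block 0 gland-methylated probes were called, and with the scan day as a block 7 were. On the relative scale IR-3W read 0.61 (tumor 1) and 0.83 to 0.96 (the others), IR-7W 0.089 to 0.83 and spontaneous 0.32 to 0.89, the groups overlapped, and the adjusted p values of the 5 probes were 0.235 to 0.294 by limma. Leaving out IR-3W tumor 1, 2, 3 or 6 or spontaneous tumor 2, 5 or 7 left 0 calls, leaving out IR-3W tumor 5 left 1, spontaneous tumor 3 left 2, IR-3W tumor 4 or 7 or spontaneous tumor 4 left 3, and spontaneous tumor 1 or 6 left 6. Without IR-3W tumor 1 the differences were still -1.34 to -1.25, with adjusted p values of 0.0690 to 0.0943 by limma.

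Gland-methylated runs lay on either side of this run. At chr12:38150494-38150928, with 3 probes, the mean level (log2) was 2.85 to 4.45 (median 3.27) for IR-3W, 0.77 to 3.41 (median 2.54) for IR-7W and 1.92 to 2.90 (median 2.03) for spontaneous tumors. At chr12:38157705-38158243, with 2 probes, it was 1.29 to 3.74 (median 3.14) for IR-3W, 0.49 to 1.96 (median 1.45) for IR-7W and 0.46 to 1.84 (median 0.91) for spontaneous tumors. In the latter run, on the log2 scale, 6 of the 7 IR-3W tumors lay above every IR-7W and spontaneous tumor, and IR-3W tumor 7, at 1.29, lay among them. IR-3W tumor 6, from the same rat as tumor 7, had the highest value, 3.74. The glands read 2.24 to 3.56 there. Relative to the array, this run read 0.35 to 1.05 for IR-3W, where tumor 1 was at 0.63, 0.14 to 0.50 for IR-7W and 0.15 to 0.66 for spontaneous tumors, and the first run read 0.77 to 0.94, 0.22 to 0.95 and 0.47 to 0.86, so IR-3W overlapped the spontaneous tumors in both. IR-7W tumor 6 was the lowest IR-7W tumor in all 3 runs on the relative scale, at 0.22, 0.089 and 0.14.

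**Figure D5:**
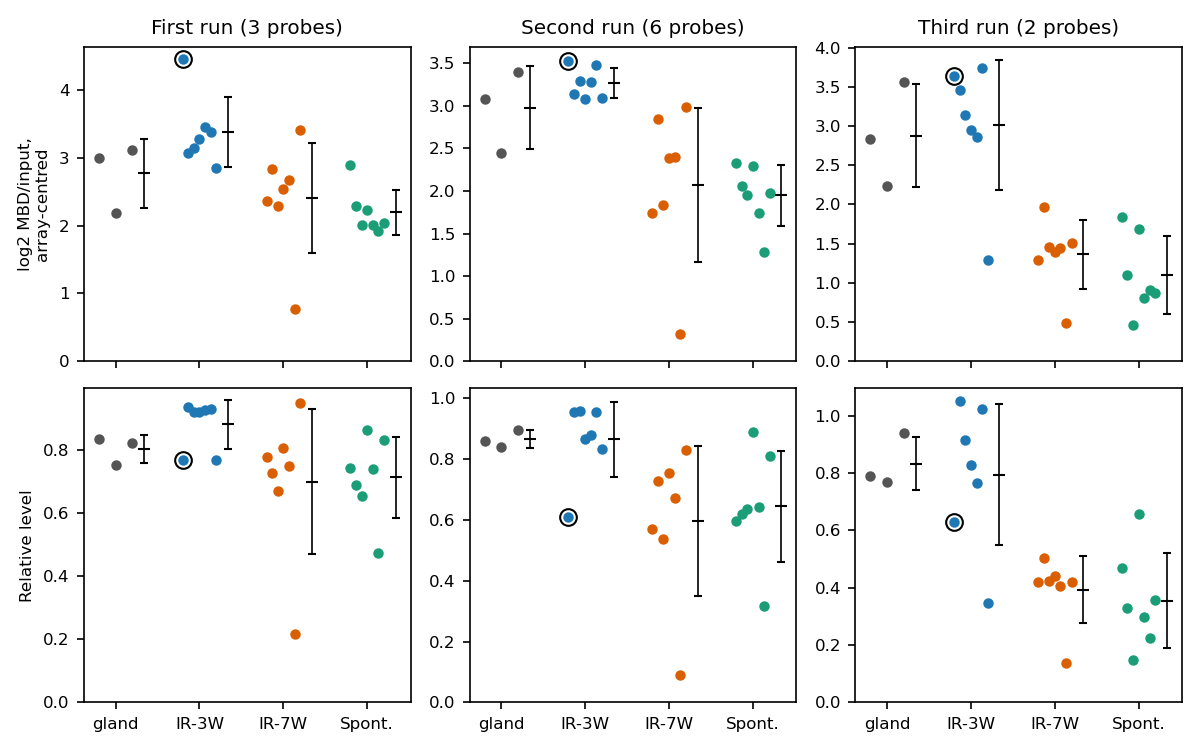
Mean level of the 3 neighbouring chromosome 12 runs in each tissue by group, on the log2 scale (top row) and the relative scale (bottom row), in order of position. Points are tissues, the bar beside them is the mean and SD, and the ring marks IR-3W tumor 1; in the second run the IR-3W tumors (3.08 to 3.53) lie above the spontaneous tumors (1.28 to 2.33) on the log2 scale, while on the relative scale IR-3W tumor 1 (0.61) lies among them.

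Probes were 45 to 60 bases long, and 64.2% of the gland-methylated probes had 45 bases, against 62.4% of the others, and 3.51% had 60 bases, against 6.55%. The Cy3 signal was well above background on all 24 arrays for 8070 of them (92.6%), against 86.3% of the others, and none of their spots was saturated. Their median Cy3 signal over that of all probes was 1.01 to 1.07 on the gland arrays, 1.03 to 1.11 (median 1.06) for IR-3W, 1.05 to 1.17 (median 1.11) for IR-7W and 1.06 to 1.35 (median 1.18) for spontaneous tumors. It was highest in the group with the lowest general level, and its part in the group levels was not tested. Their median Cy5 signal was 6.51 to 51.5 times that of all probes over the 24 arrays, the highest in IR-3W tumor 1.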

How the data were processed

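Methylated DNA of each tissue was captured with a methyl-CpG binding domain protein, and the authors hybridised it (Cy5) with unenriched DNA of the same tissue (Cy3) to a 2-colour Agilent rat CpG island array. Per the labels, Agilent Feature Extraction 10.7.3.1 was used. Per the file headers, the deposited intensity values had been background-subtracted, spatially detrended and scaled by a linear dye factor, with probe positions in rn4. The deposited log2 ratios of the value table are those of the same signals without centring, and served as an alternative. The scanner's LogRatio column, also deposited, is log10 of Cy5 over Cy3 and served only to check the direction of the ratio, since between 97.9% and 99.6% of its values on an array matched the processed signals to within 0.001. For each probe, log2 of Cy5 over Cy3 processed signal was centred on the array median over 93024 probes, spots with an outlier flag were left out, and no further normalization was applied. The number of arrays limits the precision.

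The carcinoma groups were compared with limma 3.58.1 (R 4.3.3) in a fit of the 2 groups concerned, with Benjamini-Hochberg adjustment over all probes. The methods' t-test was run on the same values. On simulated data with 200 probes changed by 4 SD, 190 were recovered for IR-7W against IR-3W, 185 for spontaneous against IR-3W and 187 for spontaneous against IR-7W, with 13, 12 and 13 false calls. Each simulated probe was drawn independently, without the array levels that the real probes share. These numbers therefore check the code and do not show how the test behaves on the real arrays or for smaller changes. Descriptive values were computed with Python 3.11.15, numpy 2.4.6 and pandas 2.3.3.

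Named regions were the 6 runs with the most probes, the 5 probes with the highest gland mean, the 5 with the lowest mean, largest SD and smallest SD over the carcinomas, the 3 smallest adjusted p among called probes of a comparison or the 2 smallest p where none was called (1 probe per run), and the 2 probes just inside and just outside the limit. Runs low in a carcinoma and their alternatives, the relative level and the chromosome 12 runs were chosen after their values were seen. The probes, rules and lists were chosen with earlier results of these data known. Gene lists and cell type markers could not be applied, since no probe is paired with a gene in the tables used. Alternatives were the background correction, array scaling, deposited ratios, a filter on dim probes, the limit, the gap that joins runs, blocks for slide, scan day and replicate number, 1 tumor per rat, the pooled fit of 24 arrays, and leaving out each tissue.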

Additional observations from a re-analysis of the deposited data

Results flagged for a closer look

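In 54 sets of 7 tumors examined, 14 held a tumor set apart from the others of its group. Chance alone sets a tumor apart in about 1 in 20 groups, but the low runs and the chromosome 12 runs were chosen after such tumors were seen, and sets share tumors, so the number is a description and not a test. IR-3W tumor 1 had a median level of the gland-methylated probes of 5.79 (log2). The count of low probes was 87 in IR-3W tumor 2 and 123 in IR-7W tumor 6, each far above its group. Among the carcinomas the interquartile range of the relative level was widest in IR-3W tumor 7 (0.238) and IR-7W tumor 3 (0.234). These were the only arrays of their slide and of their scan day, so tumor and batch cannot be told apart here. Gland 2 was wider, at 0.240. In the low run chr4:43180951-43181309 IR-3W tumor 2 stood apart at a relative level of 0.25. IR-7W tumor 6 stood apart in chr9:37852084-37852345 (0.0526), chr20:8956456-8956940 (0.297) and the chromosome 12 runs chr12:38150494-38150928 (0.218), chr12:38155524-38155953 (0.0892) and chr12:38157705-38158243 (0.138). In chr12:38155524-38155953 IR-3W tumor 1 stood apart from its group at 0.61. Among the largest runs, IR-3W tumor 7 was set apart upwards in chr5:58917818-58919814 (1.15) and spontaneous tumor 3 in chr16:19019779-19021462 (1.14).

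Among gland-methylated probes, the differences between carcinoma groups that passed the adjusted limma test were those of the 5 probes in chr12:38155524-38155953, at -1.30, -1.36, -1.38, -1.26 and -1.31 (log2, spontaneous minus IR-3W).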

How the results depend on the processing

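The median difference over the gland-methylated probes reversed for spontaneous against IR-3W with the slide as a block (0.32) and for spontaneous against IR-7W with the scan day as a block (0.064). On the relative scale it is near 0 by construction and was not counted. No other result reversed. Counts of calls that follow are of gland-methylated probes. Normexp background correction lowered the number of gland-methylated probes to 4657, the low runs to 9 and the median group means to 2.52 (IR-3W), 2.40 (IR-7W) and 2.09 (spontaneous). Dividing arrays by their median absolute deviation gave an IR-7W SD of 0.548 in its own units. Probes below every gland in all carcinomas numbered 2 with that scaling, 10 with a limit of 2, and 0 to 1 when a gland was left out (1 without gland 1). Low runs numbered 72 and 2 with limits of 2 and 3, 16 at a relative level of 0.25, 17 to 50 without a gland and 15 to 25 without a tumor. The IR-3W SD was 0.28 to 0.99 without a tumor, lowest without tumor 1. For spontaneous against IR-3W, 0 probes were called by limma with the median absolute deviation, normexp, slide as a block, the replicate block, all 24 arrays in 1 fit or the relative level, 3 with 1 tumor per rat, 2 with a limit of 3, 7 with the scan day as a block, 1 by the methods' t-test after adjustment, and 0 to 6 without a tumor. Over all probes the relative level gave 79 calls and the scan day block 73. At an unadjusted p under 0.005, limma and the methods' t-test gave 67 and 28 there (0.769% and 0.321%, against 1.21% and 1.06% of all probes), 22 and 7 for IR-7W against IR-3W (0.252% and 0.0803%, against 1.2% and 0.946%), and 10 and 5 for spontaneous against IR-7W (0.115% and 0.0574%, against 0.311% and 0.345%). IR-7W against IR-3W gave 1 call with 1 tumor per rat and 0 to 1 without a tumor (1 without IR-3W tumor 7). The replicate block gave 0 calls in all 3 comparisons. At an unadjusted limma p under 0.05 it gave 6534 gland-methylated probes for spontaneous against IR-3W (6533 lower). Of all 93024 probes 15828 passed there. For IR-7W against IR-3W it gave 155 (153 lower), and 5893 of all probes passed. Same-numbered tumors of a pair of groups had deviations that correlated from -0.22 to 0.52, so the numbers did not pair them. The causes of these changes were not tested. In 28 alternatives the 5 called probes kept their direction, all 5 passed together in 7 (of which 2 used an unadjusted p) and none passed in 13.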
